A study of Mus musculus with 6 samples.

Results

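Potassium channel genes were examined in the tibialis anterior (TA) muscle, a mostly fast muscle at the front of the shin, of NS-DADm and WT mice. The members were found by name, as the rows of the deposited table whose gene name starts with Kcn, leaving out the antisense RNA Kcnq1ot1. The rule found 8 of the 709 genes of the table, and 6 of them are described here: Kcnc1, Kcnc4, Kcng4, Kcnq5, Kcnma1 and Kcnn3. RNA was sequenced from 3 NS-DADm and 3 WT mice, 1 library per mouse, and all 6 mice were labelled C57BL/6 and 21 weeks old. NS-DADm mice carry, in every tissue, point mutations in the deacetylase activation domains of both corepressors NCoR and SMRT, which remove the enzymatic activity of HDAC3, whereas WT mice carry neither. The model is therefore not limited to muscle fibers. The paper's methods give male mice unless stated otherwise. Its WT controls were C57BL/6 J mice matched for age, and it does not say whether they were littermates.

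Potassium channels let potassium leave the muscle fiber and so end the action potential and set the resting potential. Voltage-gated members open on depolarization, while the calcium-activated members open when calcium rises in the cell. In skeletal muscle they limit repetitive firing, and potassium that collects outside the fibers during exercise takes part in fatigue. Some of the members are also known from other cells of the tissue, above all Kcnma1 from vascular smooth muscle and Kcnn3 from endothelium.

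Each member encodes a pore subunit, or a subunit built like one, and the part they share is shown first because it makes them 1 family despite different gating. The stretch of coding sequence around the codons of the potassium selectivity filter is given 5′ to 3′ on the coding strand for 5 of the genes, with the in-frame match to GGNTANGGN in capitals. The search ran on the coding strand of the longest coding transcript of each gene in GENCODE M21 (GRCm38), and each of the genes shown had 1 in-frame match.
Kcnc1: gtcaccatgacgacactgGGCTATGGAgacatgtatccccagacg
Kcnc4: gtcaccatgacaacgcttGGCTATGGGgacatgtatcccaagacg
Kcng4: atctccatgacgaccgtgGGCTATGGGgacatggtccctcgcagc
Kcnma1: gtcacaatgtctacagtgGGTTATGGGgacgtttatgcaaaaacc
Kcnn3: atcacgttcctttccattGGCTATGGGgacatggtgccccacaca
The motif was found in 6.06% of 21901 protein-coding genes and in 62 of 94 Kcn genes, some of which encode auxiliary subunits without a pore. Kcnc1 and Kcnc4, the members of 1 subfamily, were identical at 40 of the 45 bases shown, and the least alike pair, Kcnma1 and Kcnn3, at 24 of 45. The stretches lie in coding exons at chr7:46427961-46428005 (plus strand) for Kcnc1, chr3:107447781-107447825 (minus strand) for Kcnc4, chr8:119625892-119625936 (minus strand) for Kcng4, chr14:23528395-23528439 (minus strand) for Kcnma1 and chr3:89645500-89645544 (plus strand) for Kcnn3.

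The table lists genes that the authors called between these same 6 libraries, so a difference was a condition for being listed. The p-values below describe the size of a difference against the spread and are not independent evidence of it. The values are normalized counts, meaning reads per gene after division by the size factor of the library, and 1 read was worth between 0.905 and 1.21 of them. The listed genes took between 1047804 and 1411470 reads per library, which is not the depth of the library. Among 17 muscle fiber markers 3 had a row, and Ttn, at 383186 ± 54399 in NS-DADm and 262488 ± 14123 in WT (SD, n = 3 each), was very abundant in both genotypes. In whole muscle, fewer cells of a type and less RNA per cell cannot be told apart.

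In NS-DADm muscles Kcnc4 and Kcnma1 were higher, and Kcng4, Kcnq5, Kcnn3 and Kcnc1 were lower. The 2 higher genes moved 1.35-fold and 1.58-fold, and the 4 lower genes between 1.52-fold and 3.36-fold. Over the table the median fold was 1.62 among higher genes and 1.66 among lower genes. Kcnc4, Kcnma1 and Kcnc1 thus moved less than the median listed gene of their direction. In the limma fit over the whole table, 2 of the 6 were higher at an adjusted p under 0.05, where 50.9% of all listed genes were, and 4 were lower, where 49.1% were. The groups did not overlap in any of the 6 genes, against 97.9% of the table. Of the 6 genes, 3 were at least 2-fold lower by group means, against 14.7% of the table, and 0 were at least 2-fold higher, against 15.8%. As all listed genes passed the test (100%), passing it says nothing particular of the potassium channels. An exact permutation test of 1 gene with 3 mice against 3 cannot go below p = 0.1, which each member reached.

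**Figure D1:**
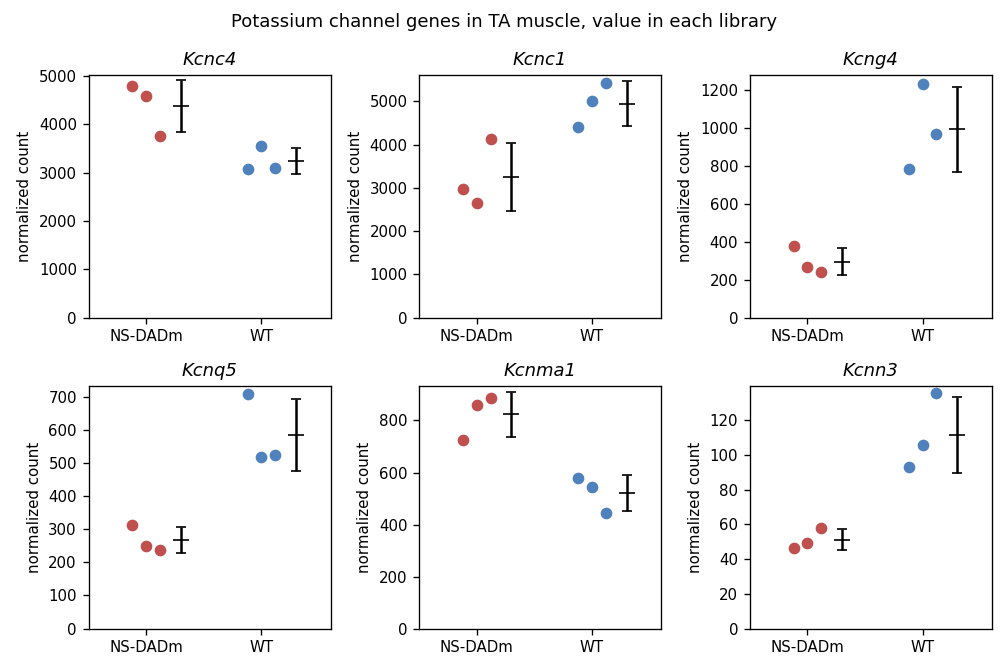
Normalized count (y axis, from 0) of each potassium channel gene in each library, with NS-DADm on the left and WT on the right of each panel. Points are single mice, and the bar beside them is the mean with the SD (n = 3). In none of the panels do the groups overlap, with the closest approach in Kcnc4 and Kcnc1, where NS-DADm replicate 3 lies nearest to WT.

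Kcnc1 and Kcnc4 encode the voltage-gated channels Kv3.1 and Kv3.4. Channels of the Kv3 subfamily typically open at strong depolarization and close fast, which lets a cell fire again quickly. How either channel gates in these muscles was not measured. Kcnc1 and Kcnc4 had the highest counts of the 6 genes and moved in opposite directions. Kcnc4 (ENSMUSG00000027895.9) is on chromosome 3 from 107438303 to 107459552, on the minus strand of GRCm38. It had 4790.4, 4595 and 3767 normalized counts in NS-DADm muscles, against 3079.6, 3554 and 3103 in WT muscles. All 3 NS-DADm libraries exceeded the WT libraries, but the lowest NS-DADm value was only 1.06 times the highest WT value. The means were 4384 ± 543 in NS-DADm and 3245 ± 267 in WT (SD, n = 3 each), and the log2 fold change was 0.43 with a standard error of 0.11 (adjusted p = 0.00395 in limma).

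Kcnc1 (ENSMUSG00000058975.7) is on chromosome 7 from 46396497 to 46438704, on the plus strand. Its normalized counts were 2969.7, 2649 and 4128 in NS-DADm muscles, against 4401, 5015 and 5426 in WT muscles. NS-DADm replicates 1 and 2 were far below WT, while replicate 3 was close to the lowest WT library, which exceeded it 1.07-fold. The means were 3249 ± 778 in NS-DADm and 4947 ± 516 in WT (SD, n = 3 each), and the log2 fold change was -0.63 with a standard error of 0.15 (adjusted p = 0.00283 in limma). The coefficient of variation was 23.9% in NS-DADm and 10.4% in WT. Without NS-DADm replicate 3 the log2 fold change of Kcnc1 was -0.81 and that of Kcnc4 was 0.53.

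Since both are Kv3 subunits, their balance was taken within each library, where the size factor cancels. The ratio of Kcnc4 to Kcnc1 normalized counts was 1.61, 1.74 and 0.913 in NS-DADm libraries, against 0.700, 0.709 and 0.572 in WT libraries. The ratio was thus higher in all 3 NS-DADm libraries, with replicate 3 nearest to WT. It averaged 1.42 ± 0.444 in NS-DADm and 0.660 ± 0.0766 in WT (SD, n = 3 each), which is 2.15-fold higher in NS-DADm. Per kilobase of exon the ratio was 3.66 ± 1.14 in NS-DADm and 1.70 ± 0.197 in WT, so per length Kcnc4 was the higher of the pair in every library. The sum of both genes did not separate the genotypes: it was 7633 ± 344 normalized counts in NS-DADm and 8193 ± 617 in WT, and per kilobase 1539 ± 78.5 in NS-DADm and 1408 ± 97.7 in WT, with overlapping libraries on either scale and opposite orders of the means. As both genes were listed because they had changed, the shift of the ratio is a description and was not tested.

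**Figure D2:**
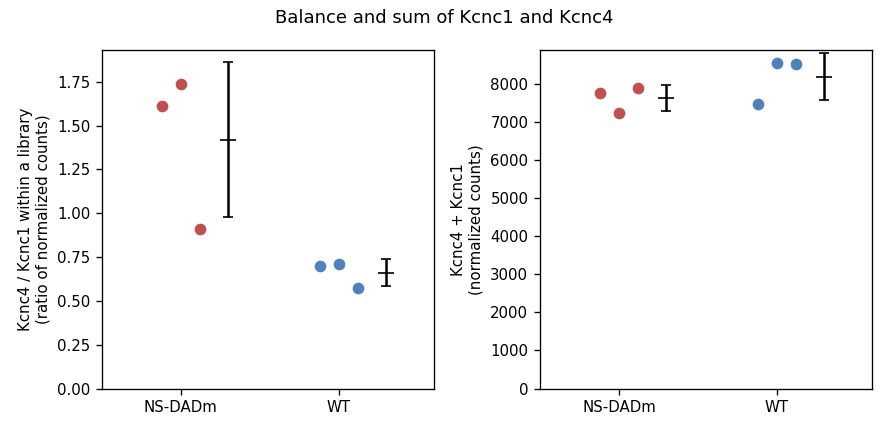
Left, the ratio of Kcnc4 to Kcnc1 normalized counts within each library, and right, the sum of both (y axes from 0), with NS-DADm left of WT. Points are single mice and bars the mean with the SD (n = 3). The ratio lies between 0.913 and 1.74 in NS-DADm and between 0.572 and 0.709 in WT, whereas the sums overlap.

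Kcng4 encodes Kv6.4, a subunit that forms no working channel by itself and changes the gating of Kv2 channels when it joins them. It had the largest change of the 6 genes, and ranked 25 by log2 fold change among the 348 lower genes of the table. Kcng4 (ENSMUSG00000045246.11) is on chromosome 8 from 119623854 to 119635680, on the minus strand. Its normalized counts were 377, 269.9 and 240.2 in NS-DADm muscles, against 782, 1231 and 969 in WT muscles. The lowest WT library was 2.08 times the highest NS-DADm library. The means were 296 ± 72.0 in NS-DADm and 994 ± 225 in WT (SD, n = 3 each), so Kcng4 was 3.36-fold lower, and the log2 fold change was -1.75 with a standard error of 0.19 (adjusted p = 4.67e-05 in limma).

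The 250 bases before the start of Kcng4 in RefSeq (GRCm38.p6, chr8:119635681-119635930, minus strand) are shown because this gene changed most. Capitals mark the single match to CANNTG, the E-box, found in the search of both strands.
Kcng4: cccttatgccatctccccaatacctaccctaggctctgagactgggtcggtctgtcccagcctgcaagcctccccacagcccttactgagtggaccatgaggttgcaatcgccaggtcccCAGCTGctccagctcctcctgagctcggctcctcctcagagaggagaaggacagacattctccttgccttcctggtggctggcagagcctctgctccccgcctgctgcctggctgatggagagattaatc
Promoter windows from 250 bases before to 50 after the start were matched for all 6 genes, with 2 windows for Kcnq5. CANNTG is the site of myogenic factors such as MyoD in muscle, and was found in the windows of Kcnc1, Kcnc4 and Kcng4 and in 72.3% of all 32851 windows. AGGTCA, the half-site of many nuclear receptors, which recruit NCoR and SMRT, was in none of the members' windows and in 16.3% of all windows. At so low a share, finding no match in these few windows says little about the members. GGGCGG, the GC box, was in the windows of Kcnma1, Kcnc1 and Kcnc4 and in 35.7% of all. These windows, of both higher genes and of 1 lower gene, were also the richest in G and C among the members' windows. Their G and C share was 78% for Kcnma1, 74.7% for Kcnc1 and 66.7% for Kcnc4, where the median of all windows was 52.7%. The window of Kcnma1 (chr14:24004156-24004455, minus strand) lies inside its GENCODE gene, which begins at 24014491 on that strand. The window of Kcnc4 (chr3:107458849-107459148, minus strand) also lies inside its GENCODE gene, which begins at 107459552. Starts at those positions were therefore not searched. Sites outside the windows were not searched either, and whether any of these motifs takes part in the differences was not tested.

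Kcnq5 encodes Kv7.5, a channel of the KCNQ subfamily that opens slowly at voltages near rest and damps excitability. Kcnq5 (ENSMUSG00000028033.16) is on chromosome 1 from 21398403 to 21961942, on the minus strand. It had 313, 251 and 238 normalized counts in NS-DADm muscles, against 709.9, 519.8 and 524 in WT muscles. The lowest WT library was 1.66 times the highest NS-DADm library. The means were 267 ± 40.0 in NS-DADm and 585 ± 108 in WT (SD, n = 3 each), so Kcnq5 was 2.19-fold lower, and the log2 fold change was -1.12 with a standard error of 0.16 (adjusted p = 0.0002 in limma). WT replicate 1 was the highest library, and without it the log2 fold change was -0.97. Its exons share 237 of 7689 bases with Gm26580 on the other strand, and the sources used here do not say whether the counting used strand.

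Kcnma1 and Kcnn3 are the calcium-activated members, and they moved in opposite directions. Kcnma1 encodes the pore subunit of the BK channel, which opens with both voltage and calcium and carries a large current. Kcnma1 (ENSMUSG00000063142.15) is on chromosome 14 from 23289431 to 24014491, on the minus strand. Its normalized counts were 723, 858 and 888 in NS-DADm muscles, against 578, 543 and 444 in WT muscles. The lowest NS-DADm library was 1.25 times the highest WT library. The means were 823 ± 87.7 in NS-DADm and 521 ± 69.5 in WT (SD, n = 3 each), so Kcnma1 was 1.58-fold higher, and the log2 fold change was 0.66 with a standard error of 0.13 (adjusted p = 0.00123 in limma). Its exons share 1016 of 16976 bases with 4930519K11Rik on the other strand, and this overlap carries the same limit as for Kcnq5.

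Kcnn3 encodes SK3, a small-conductance channel gated by calcium through bound calmodulin, which is known from muscle before innervation and after denervation. Kcnn3 (ENSMUSG00000000794.9) is on chromosome 3 from 89520164 to 89675132, on the plus strand. Its normalized counts were 46.5, 49.0 and 57.9 in NS-DADm muscles, against 93.3, 105.6 and 135 in WT muscles. It was the least abundant member, with 44 to 51 reads per NS-DADm library and 103 to 141 reads per WT library, so that counting error is larger here than in the other genes. The lowest WT library was 1.61 times the highest NS-DADm library. The means were 51.1 ± 6.03 in NS-DADm and 111 ± 21.7 in WT (SD, n = 3 each), so Kcnn3 was 2.18-fold lower, and the log2 fold change was -1.10 with a standard error of 0.21 (adjusted p = 9.27e-04 in limma).

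Levels of different genes were compared per kilobase of exon, with exon lengths from GENCODE M21. Kcnc4 was the highest in both genotypes, at 1196 ± 148 normalized counts per kb in NS-DADm and 885 ± 72.9 in WT (SD, n = 3 each). Kcnc1 came next, at 344 ± 82.3 in NS-DADm and 523 ± 54.6 in WT. Kcng4 followed at 77.7 ± 18.9 normalized counts per kb in NS-DADm and 261 ± 59.2 in WT. Below it the order of levels differed between genotypes. Kcnma1, at 48.5 ± 5.17 normalized counts per kb in NS-DADm and 30.7 ± 4.09 in WT, was above Kcnq5 in NS-DADm and below it in WT. Kcnq5 was at 34.7 ± 5.20 normalized counts per kb in NS-DADm and 76.0 ± 14.1 in WT. Kcnn3 was the lowest in both, at 4.89 ± 0.577 normalized counts per kb in NS-DADm and 10.7 ± 2.07 in WT. Within each genotype the libraries of neighbours in this order did not overlap. The lengths depend on which transcripts muscle uses, which the table does not tell.

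**Figure D3:**
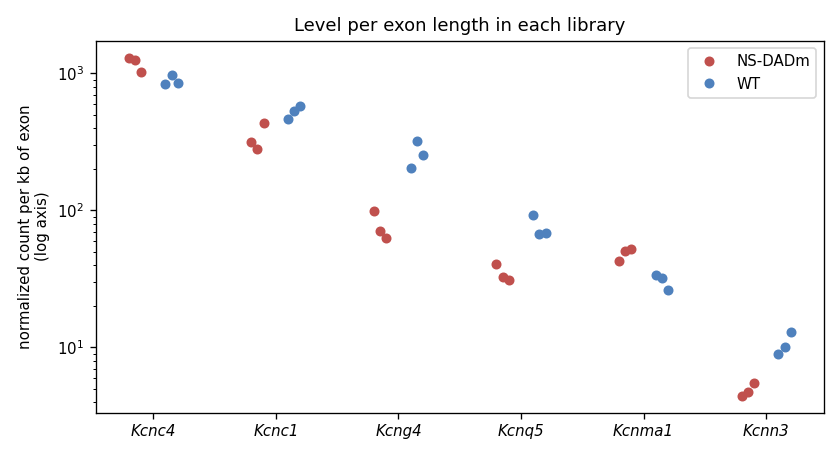
Normalized count per kilobase of exon (y axis, logarithmic) of each gene in each library, with NS-DADm left of WT for each gene and genes ordered by their WT mean. Points are single mice. Kcnma1 and Kcnq5 change places: Kcnma1 is at 48.5 in NS-DADm and 30.7 in WT, and Kcnq5 at 34.7 in NS-DADm and 76.0 in WT.

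The differences were compared with the effect of each library. Leaving out 1 library at a time kept each member on its side of 0 and at an adjusted p under 0.05. The share of all listed genes that did so was not counted. All of them were listed for a difference between these same libraries, so this is not particular evidence for the members. For Kcng4 the log2 fold change then lay between -1.94 and -1.58, and for Kcnq5 between -1.24 and -0.97. Kcnn3 lay between -1.22 and -0.95 and Kcnc1 between -0.81 and -0.49. Kcnma1 lay between 0.55 and 0.75 and Kcnc4 between 0.36 and 0.53. Under quantile normalization the log2 fold change of Kcnc4 was smaller, at 0.26 (adjusted p = 0.0134 in limma). With p-values adjusted over all 55450 annotated genes, an upper bound on the adjustment, 2 of the 6 passed, Kcng4 and Kcnq5 (22.0% of the table did). The adjusted p of the others was then 0.0725 for Kcnn3, 0.0965 for Kcnma1, 0.221 for Kcnc1 and 0.309 for Kcnc4 in limma.

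**Figure D4:**
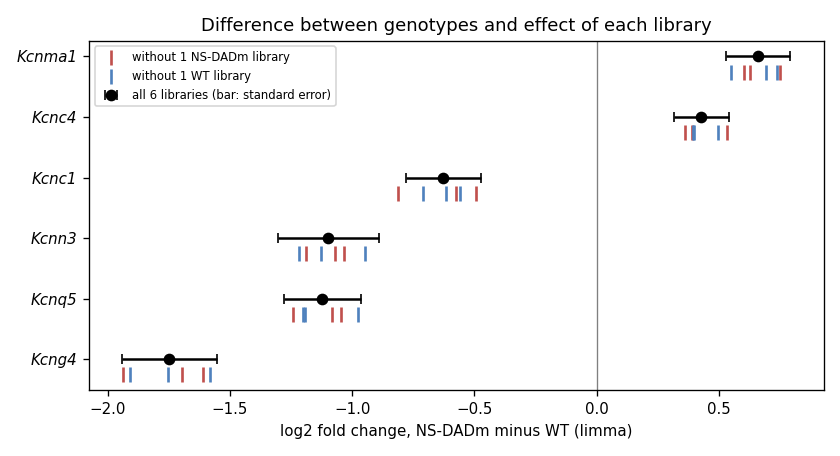
Log2 fold change of each gene (x axis, NS-DADm minus WT, limma). Black points with bars are the fit on all 6 libraries with its standard error, and ticks below are the fits without 1 NS-DADm library or without 1 WT library. Kcng4 is farthest from 0 at -1.75, and no tick crosses 0.

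For each member the genes of most similar pattern were sought among 616 genes whose mean reached 50 normalized counts, by Pearson's r of log2 values over the 6 libraries. These r describe a likeness in genes that were all listed for a difference between the same libraries, and they mostly follow genotype. For Kcng4 they were Dusp3 (r = 0.99) and Smarcd3 (r = 0.99), a protein phosphatase and a subunit of the BAF chromatin complex, and 190 of the 616 genes had an r over 0.9. Dusp3 averaged 1473 ± 95.5 in NS-DADm and 2219.7 ± 156 in WT (SD, n = 3 each), a smaller change than that of Kcng4. For Kcnn3 the most similar was Gpat4 (r = 0.99), an enzyme of glycerolipid synthesis. For Kcnq5 they were D830039M14Rik and Ccdc71l (r = 0.98 each), and for Kcnc1 Ddx54 and Ppm1j (r = 0.97 each). Kcnma1 was most like Cacng7 (r = 0.99), a regulatory subunit known from neuronal channels and receptors, and Crybg3 (r = 0.99). Cacng7 averaged 530.2 ± 51.8 in NS-DADm and 289 ± 35.5 in WT (SD, n = 3 each), which is 1.83-fold higher. Kcnc4 was most like Mapkapk3, a stress-activated kinase, and Rhoq, a small GTPase of insulin-stimulated glucose uptake (r = 0.99 each). Kcnc1 had the fewest genes with an r over 0.9, 43 of 616.

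Of the 94 protein-coding Kcn genes of GENCODE M21, 8 had a row in the table (8.51%), against 2.93% of all protein-coding genes. Neither share accounts for which genes are expressed in muscle, and a gene without a row was either not tested, not called or not analysed here. Of 21 Kcn subfamilies 16 had no row, among them the inward rectifiers (Kcnj), the leak channels (Kcnk), the Kv1 channels (Kcna) and the Kv2 channels (Kcnb) that Kcng4 subunits join.

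A list of 22 partners of potassium channels with other names had 2 rows, 1 higher and 1 lower, with a median log2 fold change of 0.17, where the median over the table was 0.38. The 0.17 falls between 2 genes of opposite direction, and the table holds 361 higher and 348 lower genes. Neither median thus stands for a typical gene, and the medians of the short lists below carry the same limit. Calm3, 1 of the calmodulin genes, whose protein is the calcium sensor of SK channels and binds KCNQ channels, averaged 2937 ± 60.7 in NS-DADm and 4673 ± 219 in WT (SD, n = 3 each), a log2 fold change of -0.67 (limma adjusted p = 1.43e-04). Abcc8, the sulfonylurea receptor subunit of ATP-sensitive potassium channels, averaged 157 ± 23.0 in NS-DADm and 78.0 ± 12.7 in WT, which is 2.01-fold higher (limma adjusted p = 8.61e-04).

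Of 41 genes of muscle excitability and calcium release, 3 had a row, 1 higher and 2 lower, with a median log2 fold change of -0.36. Sntb1, a syntrophin that anchors membrane proteins to the dystrophin complex, averaged 12.9 ± 3.71 in NS-DADm and 57.4 ± 5.55 in WT (SD, n = 3 each). Jsrp1, a protein of the junction between the T-tubule and the sarcoplasmic reticulum, averaged 4421 ± 162 in NS-DADm and 5693 ± 535 in WT. Sln, an inhibitor of the calcium pump of the sarcoplasmic reticulum, averaged 36.4 ± 21.9 in NS-DADm and 8.62 ± 6.79 in WT, with a large spread. Few reads lie behind the lower group of Sntb1 (16, 10 and 10 in NS-DADm) and of Sln (17, 2 and 9 in WT). Counting error is therefore large for both genes. The limma adjusted p was 1.92e-04 for Sntb1, 0.00471 for Jsrp1 and 0.0063 for Sln.

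Because Kcnn3 is known from denervated muscle, 27 genes that respond to denervation were read beside it. Of these, 4 had a row, 3 higher and 1 lower, with a median log2 fold change of 0.84. Runx1, a transcription factor that rises in denervated muscle, averaged 56.7 ± 19.1 in NS-DADm and 24.1 ± 3.28 in WT (SD, n = 3 each). The acetylcholine receptor subunits moved apart, with Chrna1 at 206 ± 13.9 in NS-DADm and 142 ± 15.8 in WT, and Chrnb1 at 347 ± 48.5 in NS-DADm and 542 ± 73.7 in WT. Sln, given above, is the fourth. Kcnn3 itself was lower, so it moved with Chrnb1 and against the other 3 genes.

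Markers of other cells were read beside the members that such cells also make. Of 11 vascular smooth muscle markers 1 had a row, Lmod1, an actin-nucleating protein of smooth muscle, at 318 ± 50.8 in NS-DADm and 89.6 ± 20.8 in WT (SD, n = 3 each). It moved in the same direction as Kcnma1, and its part in that result was not tested. Of 9 macrophage markers 1 had a row, Mrc1, at 265 ± 36.8 in NS-DADm and 130.0 ± 12.5 in WT. Of 11 endothelial, 13 Schwann cell and axon, 8 fibroblast, 7 satellite cell and 6 adipocyte markers 0 had a row, so their levels are not known here. The fiber markers Actn3 and Myl1 averaged 191128 ± 18059 and 47217 ± 2182 in NS-DADm, against 140315 ± 20035 and 62110 ± 6500 in WT.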

How the data were processed

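RNA was extracted from TA muscles of 3 NS-DADm and 3 WT mice and sequenced, 1 library per mouse, and groups came from the sample titles. The paper names STAR for alignment to GRCm38, while TopHat2 (2.1.0) and HTSeq stand beside DESeq2 (1.8.2) in the submitters' processing notes, a conflict the table does not settle. The authors' deposited values are a signal, normalized counts per library, listed for genes called at a 5% false discovery rate. The table's other columns, the authors' means, fold changes and p-values, were not used. All values were whole multiples of 1 read within 0.01 reads.

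Genotypes were compared on log2(normalized count + 1) in limma (3.58.1, R 4.3.3). The two-sided test used a trend of the variance with the mean, and p-values were adjusted over the 709 rows after Benjamini and Hochberg. No filter was applied, since the lowest mean over the 6 libraries was 12.2. Folds are ratios of group means. Exon lengths, positions and coding sequences are from GENCODE M21, to which 706 gene identifiers matched, and promoters from RefSeq (GRCm38.p6). Named genes are the members, up to 5 genes of smallest p from each list and the 2 genes most like each member. The members and lists were chosen with earlier results of these data known. Of the 8 genes found by name, 2 are not reported here, nor are some further sequence and likeness results. The limma step was tested on simulated data.

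The alternatives were pseudocounts of 0.5 and 5, a mean of at least 50, no trend, quantile normalization, the replicate number as a block, leaving out each library, and adjustment over all annotated genes.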

Additional observations from a re-analysis of the deposited data

How the results depend on the processing

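Of 78 alternative values of the 6 potassium channel genes, 74 had the same sign and call as in the report and 4 missed the threshold, all under the adjustment over all annotated genes, which left 0 higher genes and 2 lower genes. That setting only raises the number of tests, and 22.0% of the table passed under it. For the other settings, the share of all listed genes that kept their sign and call was not counted. Quantile normalization gave Kcnc4 a log2 fold change of 0.26, against 0.43 with the deposited scaling. Leaving out 1 library at a time gave 2 higher and 4 lower genes each time, and a mean ratio of Kcnc4 to Kcnc1 of 1.26 to 1.67 in NS-DADm and 0.636 to 0.704 in WT. Among genes whose mean reached 50 normalized counts, the excitability list had 0 higher and 1 lower gene, because Sln and Sntb1 had lower means and were left out. With the replicate block the counts stayed at 2 higher and 4 lower. Libraries of the same number deviated from their group means with correlations of -0.149, 0.148 and 0.050, so the number was taken only as a name. The edgeR and DESeq2 alternatives were not run: all values were whole multiples of 1 read in a search over the whole table, but a separate check on the low values alone did not find this step, so the reads were used only to describe depth. Part of this stability follows from the choice of genes by their difference in these libraries, and differences smaller than those of the listed genes cannot be seen in it.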
